A study of Mus musculus with 24 samples.

Results

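The genes described here are 10 steroid synthesis and hormone genes of Leydig cells, Star, Cyp11a1, Cyp17a1, Hsd3b1, Hsd3b6, Hsd17b3, Insl3, Lhcgr, Nr5a1 and Srd5a1. They were taken by symbol from count tables that list 24456 genes, and all 10 passed the filter on low counts that left 17170 genes for testing. The tables hold RNA-seq of whole testis from wild-type (WT) mice and from homozygous Atad2 knockout (KO) mice at postnatal days 20, 22, 24 and 26, during the first wave of spermatogenesis, when round and then elongating spermatids appear. Each genotype has 4 libraries at days 20 and 22 and 2 at days 24 and 26, which makes 24 libraries in 8 groups. The KO allele derives from a knockout-first insertion with a lacZ cassette. It was recombined by Cre under the ubiquitous CMV promoter, so that Leydig cells carry the disruption as well as germ cells, and no group has it in Leydig cells alone. ATAD2 is a chromatin factor with a bromodomain and an ATPase domain. The study asked how its absence alters transcription as post-meiotic cells arise.

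Leydig cells lie between the seminiferous tubules and make androgens from cholesterol under the control of luteinizing hormone from the pituitary. The hormone binds the receptor Lhcgr, cyclic AMP rises, and STAR carries cholesterol into the mitochondrion, where CYP11A1 cuts its side chain to give pregnenolone. A 3-beta-hydroxysteroid dehydrogenase (HSD3B) and CYP17A1 then lead to androstenedione, and HSD17B3 reduces it to testosterone. In mice around these ages the adult Leydig cell population takes over from fetal Leydig cells. HSD3B6 and HSD17B3 are known as enzymes of the adult type, while HSD3B1 is made in both.

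Sequence comparisons are shown first because Hsd3b1 and Hsd3b6, isozymes of 1 step, are set against each other as a ratio further on and because their counts could be confused if reads did not tell them apart. Hsd3b1 (chr3:98852194-98859794, minus strand, GRCm38) and Hsd3b6 (chr3:98805504-98814443, minus strand) have reading frames of 1122 bases each, identical at 1010 positions (90%), and their longest identical run is 72 bases, shorter than the 75 bases of a read. The windows below cover bases 57 to 131 of both reading frames and differ at 16 of 75 positions, the most of any such window within 1 exon, while the most alike window of this length anywhere in the frames differed at 1 position. Capitals mark the bases that differ between both genes, and the sequences are written on the coding strand.
Hsd3b1, chr3:98857834-98857908, minus strand, exon 3 of 5: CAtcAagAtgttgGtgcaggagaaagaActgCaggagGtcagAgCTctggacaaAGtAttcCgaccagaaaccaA
Hsd3b6, chr3:98810916-98810990, minus strand, exon 2 of 4: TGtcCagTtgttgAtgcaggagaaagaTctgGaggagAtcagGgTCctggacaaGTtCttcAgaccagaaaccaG

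The 250 bases before the annotated start of each of both genes, taken from RefSeq (GRCm38.p6), were 46.4% identical in an alignment of 274 columns. AGATAA, a sequence bound by GATA factors, is in capitals. It was searched on both strands and lay 134 bases before the start of Hsd3b1 and 31 bases before that of Hsd3b6.
Hsd3b1, chr3:98859795-98860044, minus strand: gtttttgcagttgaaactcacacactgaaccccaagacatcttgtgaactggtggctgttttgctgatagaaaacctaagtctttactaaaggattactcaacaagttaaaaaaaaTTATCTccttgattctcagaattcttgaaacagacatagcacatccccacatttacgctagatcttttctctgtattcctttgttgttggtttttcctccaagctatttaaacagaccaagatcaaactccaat
Hsd3b6, chr3:98814444-98814693, minus strand: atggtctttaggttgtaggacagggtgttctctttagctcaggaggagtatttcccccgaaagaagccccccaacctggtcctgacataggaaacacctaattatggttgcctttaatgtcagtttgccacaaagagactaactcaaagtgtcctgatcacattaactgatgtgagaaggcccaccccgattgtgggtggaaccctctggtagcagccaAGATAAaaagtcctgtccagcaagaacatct

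Of the members, 7 had such an entry (Star, Cyp17a1 and Nr5a1 had none), and AGATAA was found in these 2 genes only, against 9.99% of all 32851 promoter windows of the same length. CAAGGNCA, the sequence bound by NR5A1, was not in the windows of the 7 genes (5.53% of all windows), and neither was TATAAA (12.4% of all). Cyp11a1 had 2 windows (chr9:57997774-57998023 and chr9:58014702-58014951), and neither adjoins the start of its GENCODE gene model (58006411). The bases just before that start were thus not searched. These are matches of letters in short windows and no measure of binding.

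The libraries held between 10709667 and 19491935 counts assigned to genes, and the members took between 5100 and 38267 of them. The lowest count of a member was 38, for Hsd17b3 in WT day 22 replicate 3. Atad2 itself was at 76.1 to 171 CPM (counts relative to the library total, scaled by TMM) in WT libraries and at 30.8 to 53.0 CPM in KO libraries, with a log2 fold change over the mean of the days of -1.37 (SE 0.11, edgeR adjusted p = 1.23e-07). WT day 20 replicate 2 stood apart from its group by mitochondrial rRNA (3.26% of counts, against at most 1.06% in the other libraries), and KO day 22 replicate 4 had the fewest reads with multiple alignments (4.74%). In 9 libraries of both genotypes, epididymal transcripts summed to more than 10 CPM (14.3 to 755 CPM), against at most 2.16 CPM in the others. The adrenal cortex genes Cyp11b2 (0 in every library) and Cyp11b1 (at most 0.116 CPM) and the adrenal enzyme Cyp21a1 (at most 1.17 CPM) were at or near 0, while Mrap, an accessory protein of the adrenocorticotropin receptor on the same list, was at 3.47 to 22.1 CPM and was called higher with age in WT (log2 fold change 1.83, SE 0.40, edgeR adjusted p = 0.0011).

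Compared per kilobase of exon (RPKM), the members covered a wide range of levels. In WT at day 20, Hsd3b1 was highest with 80.3 ± 22.7 RPKM (SD, n = 4), followed by Hsd3b6 with 53.7 ± 10.1 and Insl3 with 27.3 ± 10.4. Cyp17a1 (19.1 ± 5.90 RPKM), Nr5a1 (14.3 ± 1.33), Srd5a1 (10.9 ± 1.55), Cyp11a1 (10.2 ± 0.629) and Star (8.50 ± 1.23) followed, and Hsd17b3 (3.08 ± 0.585) and Lhcgr (2.75 ± 0.665) were lowest. Neighbours in this order had overlapping library ranges, except for Hsd3b6 and Insl3 and for Star and Hsd17b3. At day 26 in WT the order was different, with Cyp17a1 first (204 ± 60.7 RPKM, n = 2), then Hsd3b1 (135 ± 41.5), Insl3 (121 ± 88.7), Hsd3b6 (114 ± 32.1) and Cyp11a1 (80.3 ± 35.2). Star was at 30.6 ± 2.73 RPKM, and Srd5a1, Nr5a1, Hsd17b3 and Lhcgr were at 17.2, 15.3, 12.6 and 6.32 RPKM. The 2 libraries of this group lay far apart for most members, and neighbours overlapped except where Star separated from Cyp11a1 above it and Srd5a1 below it, and Hsd17b3 from Lhcgr. RPKM divides by the full exon length in GENCODE, also for Insl3, much of which overlaps another gene there.

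The first question was how these genes change with age. In WT, 8 of the 10 members were higher at day 26 than at day 20, where 24.4% of all genes tested were called higher and 42.5% were called in either direction (edgeR's quasi-likelihood test, Benjamini-Hochberg adjusted p under 0.05). The members' median log2 fold change was 1.53, beside -0.04 over all genes. Nr5a1 and Srd5a1 were not called, and no member was called lower (18.1% of all genes were), while DESeq2 called 8 higher as well (42.8% of all genes in either direction and 25.5% higher). In KO, 3 of 10 were called higher and none lower (27.2% of all genes were called higher, 24.9% lower and 52.2% in either direction), with a median of 0.45 beside -0.07 over all genes. Whole testis was measured, so that a change in the number of Leydig cells and a change in RNA per cell cannot be told apart.

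Cyp17a1, which makes the androgen precursors, had the largest change of the members in WT, and Hsd17b3 had it in KO. Cyp17a1 was at 50.1, 53.2, 73.8 and 34.0 CPM in WT at day 20, at 234, 159.6, 141 and 142 CPM at day 22, at 105 and 243 CPM at day 24 and at 682 and 445 CPM at day 26. The log2 fold change from day 20 to day 26 was 3.42 (SE 0.56, edgeR adjusted p = 7.07e-05), or 10.7-fold, and no library of day 26 overlapped day 20. In KO it was at 56.4, 31.3, 177 and 215 CPM at day 20 and at 397 and 377 CPM at day 26, with a log2 fold change of 1.69 (SE 0.55, edgeR adjusted p = 0.0154).

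Cyp11a1, the first enzyme of the pathway, lay within a narrow range in WT at days 20 and 22. Its values were 47.3, 46.1, 50.5 and 52.8 CPM at day 20 and 137, 139, 127 and 132 CPM at day 22, followed by 114 and 173 CPM at day 24 and 505 and 266 CPM at day 26. The log2 fold change was 2.97 (SE 0.45, edgeR adjusted p = 2.63e-05) in WT. All WT libraries of day 22 were above all of day 20. In KO the values were 55.1, 22.8, 124 and 133 CPM at day 20 and 223 and 167 CPM at day 26, and the log2 fold change was 1.22 (SE 0.44, edgeR adjusted p = 0.0283).

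Hsd17b3, which makes testosterone, was the third gene called with age in both genotypes. In WT it was at 4.40, 5.37, 3.53 and 3.82 CPM at day 20 and at 20.6 and 14.3 CPM at day 26 (log2 fold change 2.04, SE 0.36, edgeR adjusted p = 9.52e-05). In KO it was at 3.26, 3.01, 4.62 and 6.10 CPM at day 20 and at 14.0 and 20.7 CPM at day 26 (2.03, SE 0.36, edgeR adjusted p = 0.000102). The values of day 26 did not overlap those of day 20 in either genotype, and the WT libraries of days 22 and 24 lay between 2.21 and 5.98 CPM.

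Of the other 5 genes called in WT, Insl3, a peptide hormone of Leydig cells that acts in testis descent and germ cell survival, had a log2 fold change of 2.16 (SE 0.45, edgeR adjusted p = 0.000715). Star, Lhcgr, Hsd3b6 and Hsd3b1 followed with 1.84, 1.21, 1.08 and 0.75. Their adjusted p-values in edgeR lay between 0.00547 for Star and 0.0387 for Hsd3b6. Nr5a1, the nuclear receptor that drives the steroidogenic genes and is also made in Sertoli cells, stayed within 40.8 to 81.0 CPM in all WT libraries, with a log2 fold change of 0.10 (SE 0.18). Srd5a1, the 5-alpha-reductase of immature Leydig cells, had 0.66 (SE 0.35, edgeR adjusted p = 0.137). In KO, none of these 7 genes was called, and their log2 fold changes lay between -0.41 for Nr5a1 and 0.84 for Insl3.

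**Figure D1:**
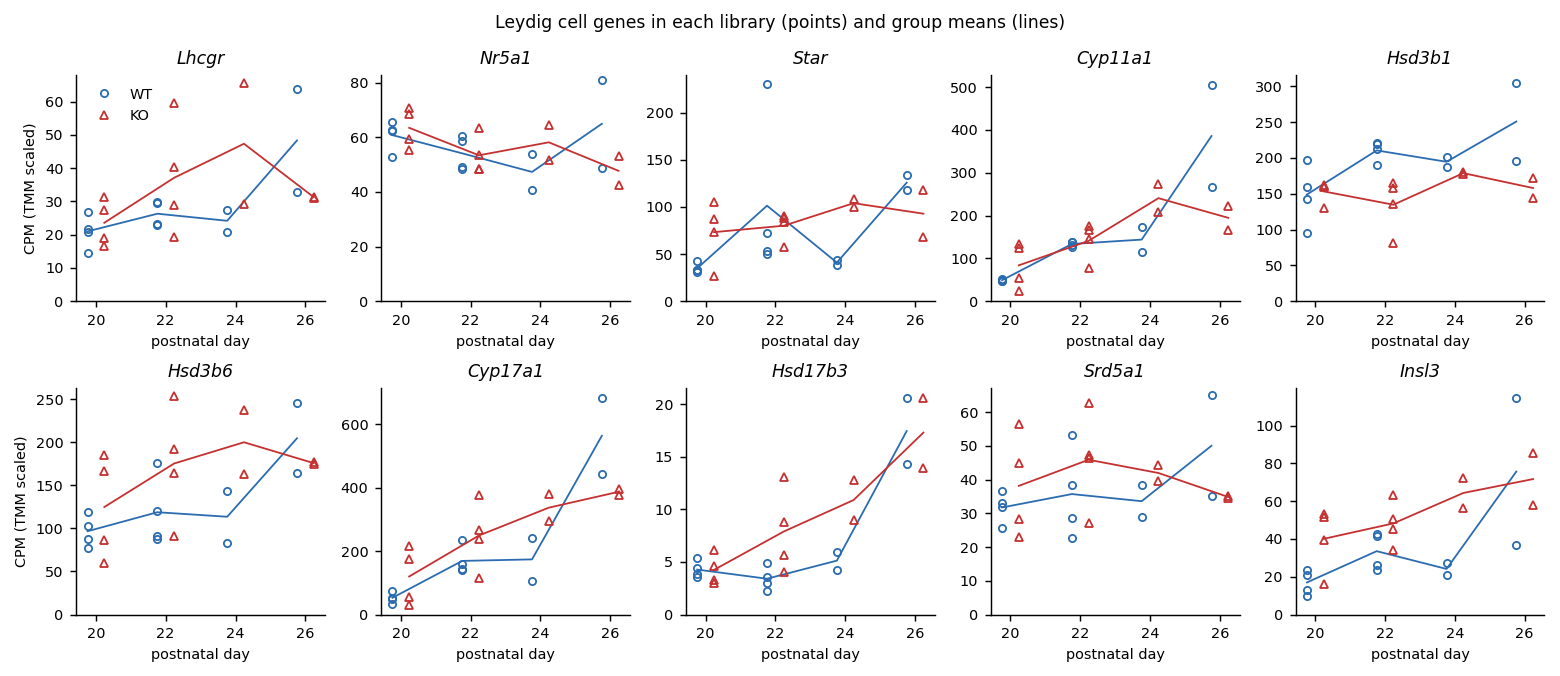
Level of each of the 10 genes in each library (points, in CPM scaled by TMM) by postnatal day, with WT as circles, KO as triangles and lines through the group means. Cyp17a1 in WT goes from 34.0 to 73.8 CPM at day 20 to 445 and 682 CPM at day 26, while Nr5a1 shows no such course.

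The difference between genotypes in the change with age was tested directly. No member passed (0% of all genes were called), and 2 had an unadjusted p under 0.05 in edgeR, among 1857 genes, while DESeq2 called no member and 1.26% of all genes. The estimates for the 10 members were all negative, with a median of -0.79 beside -0.07 over all genes. This contrast uses the same libraries as the changes with age and as the KO comparisons below. In the joint test over all days no member passed either, in edgeR or in DESeq2 (0.00582% of all genes in edgeR and 1.59% in DESeq2). In that test Hsd17b3 and Star were under 0.05 before adjustment, with edgeR adjusted p = 0.5 and 0.524, as were 1556 of all genes.

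Fewer members were called with age in a genotype when 1 of its day 26 libraries was left out, and so were fewer of all genes. This did not hold for every library, since without WT day 20 replicate 2 edgeR called 7971 of all genes in WT in place of 7292. In KO that fit called 10147 in place of 8955. WT day 26 replicate 1 was above replicate 2 for 10 of 10 members, and its members summed to 2217 CPM against 1357 CPM in the other. Without it, 4 of 10 were called in edgeR (Star, Cyp11a1, Cyp17a1 and Hsd17b3) and 3423 of all genes were called higher in place of 4183, while without replicate 2 these counts were 7 and 3347. Without replicate 1 the log2 fold change of Insl3 was 1.10 (adjusted p = 0.0999) and that of Lhcgr 0.64 (adjusted p = 0.306). In KO, leaving out either library of day 26 left Hsd17b3 alone of the members called, with 3856 and 3561 of all genes called higher in place of 4672. Without the libraries that hold epididymal transcripts, 6 members were called higher in WT and 1 in KO, with 2369 and 2488 of all genes called higher.

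Markers of Sertoli cells, the somatic cells inside the tubules, moved the other way, and 7 of 10 were called lower with age in WT and 6 of 10 in KO (18.1% and 24.9% of all genes were). Scaled to the 10 Sertoli genes in place of the whole library, all 10 members were called higher in WT and 6 of 10 in KO (edgeR), while 8594 and 8109 of 17170 genes were called higher and the median of all genes moved to 0.57 and 0.53. Nr5a1 in WT then had a log2 fold change of 0.69 (SE 0.17, adjusted p = 0.00155) and Srd5a1 1.25 (SE 0.36, adjusted p = 0.00569), and in KO both estimates changed sign, to 0.18 and 0.48, without being called. A round spermatid minus pachytene score followed age closely (-3.73 to -2.49 in WT at day 20, 2.38 and 2.42 at day 26), so that age and germ cell stage cannot be told apart.

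**Figure D2:**
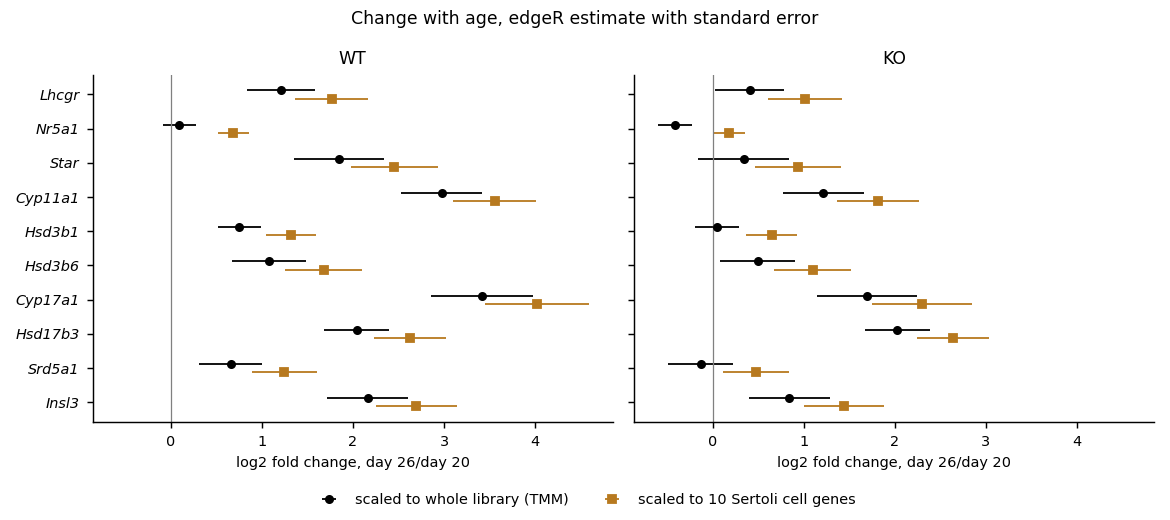
Log2 fold change of day 26 over day 20 with its standard error (edgeR) for WT and KO, scaled to the whole library by TMM (circles) or to 10 Sertoli cell genes (squares). The Sertoli scaling lies above the TMM scaling for every gene, and Nr5a1 and Srd5a1 in KO are on opposite sides of 0 under the 2 scalings.

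The second question was whether the KO differs from WT at each age. At day 20 no member was called (3.34% of all genes were, 2.98% higher and 0.361% lower), although 3 had an unadjusted p under 0.05 in edgeR, as had 2141 of all genes, and DESeq2 called 1 higher (5.26% of all genes, 4.47% higher and 0.794% lower). At day 22, 1 was called, Hsd17b3, which was higher in KO (2.51% of all genes were called, 1.26% higher and 1.25% lower), and DESeq2 called it as well (2.46% of all genes higher). At day 24 none was (0.0874% of all genes, 0.0175% higher and 0.0699% lower), with 4 members and 898 genes at an unadjusted p under 0.05, and DESeq2 called none (0.234% of all genes, 0.0701% higher). At day 26 none was called (0.0466%), with 2 members and 1979 genes at an unadjusted p under 0.05, and DESeq2 called none (0.893% of all genes). The share of all genes depends on the fit, since with each day fitted alone edgeR called 2104 of 16465 genes at day 26 and 5 of 15265 at day 20. Over the mean of the days 1 was called, Insl3, which was higher in KO (7.08% of all genes, 3.52% higher and 3.56% lower), and DESeq2 called 2 higher (6.26% of all genes were). The median log2 fold change of the members was 0.32, 0.43, 0.89 and -0.49 at the 4 days and 0.32 over their mean, beside medians of all genes between -0.04 and 0.01.

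The groups overlapped in most genes at the earlier ages. At day 20 none of the members had groups that did not overlap (3.03% of all genes had KO above and 1.68% KO below). At day 22 Hsd3b1 alone lay below WT in every KO library (4.45% of all genes) and no member lay above (3.64%). At day 24, 8 members lay above WT in both KO libraries (22.6% of all genes) and Hsd3b1 lay below (21.4%). At day 26 none lay above (27.8%) and 5 lay below (31.1%), Star, Cyp11a1, Cyp17a1, Hsd3b1 and Lhcgr. With 2 libraries a group, as at days 24 and 26, many genes do not overlap.

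**Figure D3:**
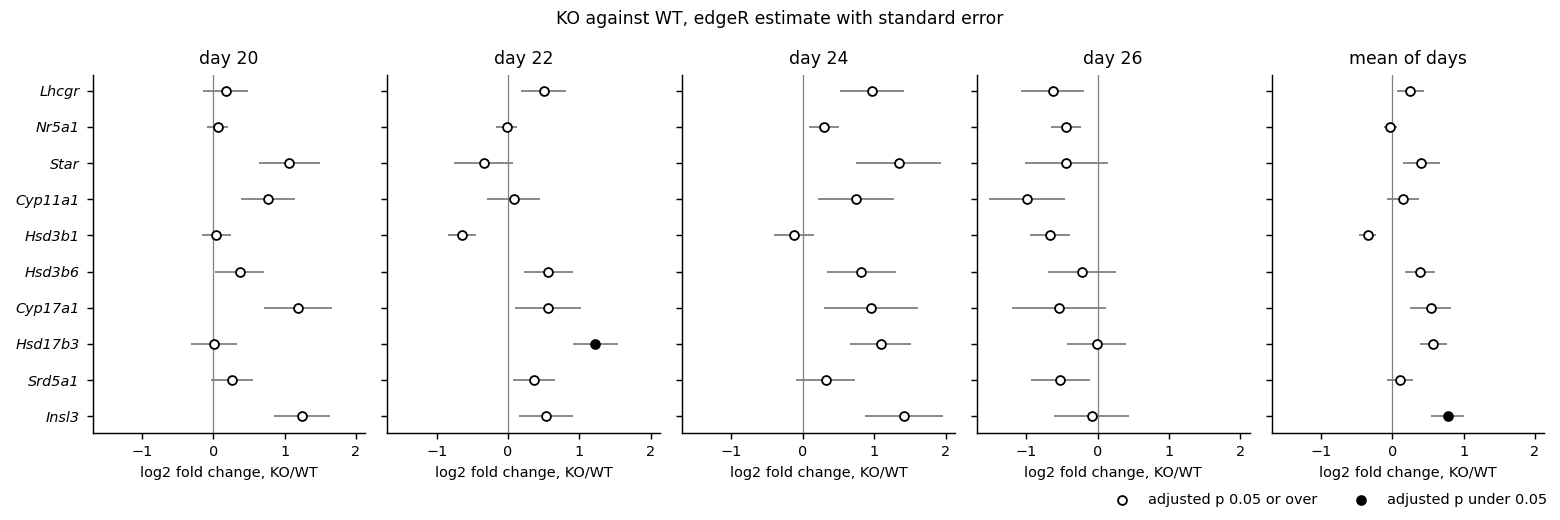
Log2 fold change of KO over WT with its standard error (edgeR) for each gene at each day and over the mean of the days, with filled points for an adjusted p under 0.05. Filled points are Hsd17b3 at day 22 (1.22) and Insl3 over the mean of the days (0.78), and at day 26 all 10 points lie below 0.

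Hsd17b3 (chr13:64058266-64089230, minus strand, GRCm38) was at 4.86, 3.60, 2.21 and 2.97 CPM in WT at day 22 and at 5.69, 8.78, 13.1 and 4.09 CPM in KO, from 38 to 198 counts. KO replicate 4 lay within the WT range and the other KO libraries above it. The log2 fold change was 1.22 (SE 0.32, edgeR adjusted p = 0.0423). At day 24 it was at 4.28 and 5.98 CPM in WT and at 8.98 and 12.8 CPM in KO (1.09, SE 0.43, edgeR adjusted p = 0.759). At days 20 and 26 the difference was 0.00 (SE 0.32) and -0.01 (SE 0.41), and over the mean of the days 0.58 (SE 0.19, edgeR adjusted p = 0.0638). The call at day 22 was lost in 14 of the 24 fits that leave out 1 library, with adjusted p-values from 0.0115 to 0.161, and was lost without each of WT replicates 2, 3 and 4 and KO replicates 2 and 3 of that day. It was also lost with the replicate number as a block (edgeR adjusted p = 0.0918), under the Sertoli scaling (0.0927), with the day fitted alone (0.163) and without the libraries with epididymal transcripts (0.717).

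Insl3 (chr8:71689214-71690575, plus strand) was at 9.98, 21.2, 13.2 and 23.6 CPM in WT at day 20 and at 51.4, 16.0, 39.6 and 53.2 CPM in KO. Only KO replicate 2 lay within the WT range, and the log2 fold change was 1.24 (SE 0.39, edgeR adjusted p = 0.104). It was at 41.6, 42.6, 26.4 and 23.6 CPM in WT and 50.7, 45.3, 63.1 and 33.9 CPM in KO at day 22, where KO replicate 4 again lay within the WT range. At day 24 it was at 20.7 and 27.5 CPM in WT and at 72.3 and 56.4 CPM in KO, and at day 26 at 115 and 36.6 CPM in WT and at 85.6 and 57.8 CPM in KO, within the spread of WT. Averaged over the days, KO was higher by 0.78 on the log2 scale (SE 0.23, edgeR adjusted p = 0.0496), and the call was lost in 18 of 24 fits that leave out 1 library (adjusted p from 0.0125 to 0.114). It was also lost with the replicate number as a block (edgeR adjusted p = 0.0812), under the Sertoli scaling (0.0556), without the filter on low counts (0.0635) and without the libraries with epididymal transcripts (0.736). In GENCODE, exons of Insl3 share 404 bases (64.8% of its length) with exons of Jak3 on the same strand. Reads that fall wholly in them could not be assigned to Insl3 if the annotation used for counting has the same overlap, which was not checked.

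Star, the cholesterol carrier, was at 42.4, 31.3, 33.5 and 32.7 CPM in WT and at 106, 27.3, 73.1 and 87.0 CPM in KO at day 20 (log2 fold change 1.07, SE 0.42, edgeR adjusted p = 0.258). At day 22, WT replicate 3 had 230 CPM while the other WT libraries had 49.6 to 72.5 CPM, and KO was at 57.7 to 90.1 CPM. The log2 fold change was -0.34 with that library and 0.47 without it. At day 24 the values were 38.4 and 43.5 CPM in WT and 109 and 99.4 CPM in KO (1.34, SE 0.60, edgeR adjusted p = 0.897), and at day 26 they were 134 and 118 CPM in WT and 117 and 68.2 CPM in KO. In the 24 fits that leave out 1 library, the difference at day 20 had adjusted p-values from 0.0426 to 0.528 in edgeR, and 1 fit, without WT day 22 replicate 3, was under 0.05.

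Cyp11a1 and Cyp17a1 in KO at day 20 split into a pair of low and a pair of high libraries (values above), and the log2 fold changes against WT were 0.77 (SE 0.38) and 1.18 (SE 0.48, edgeR adjusted p = 0.27). At day 22 KO was at 145, 165, 175 and 78.4 CPM for Cyp11a1 and at 238, 268, 375 and 116 CPM for Cyp17a1, which spanned the WT values. At day 24 KO was at 208 and 274 CPM for Cyp11a1 and at 294 and 379 CPM for Cyp17a1. At day 26 both KO libraries were below both WT libraries for both genes, with log2 fold changes of -0.99 (SE 0.53) and -0.54 (SE 0.66) that were not called.

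Lhcgr, the receptor, had log2 fold changes of 0.17, 0.50, 0.97 and -0.63 at the 4 days, with standard errors from 0.31 to 0.44. Its KO levels went from 16.6 CPM in day 20 replicate 1 to 65.6 CPM in day 24 replicate 2, and WT from 14.5 to 63.8 CPM. Nr5a1 was between 40.8 and 81.0 CPM in WT and between 42.5 and 70.6 CPM in KO, with differences from -0.45 to 0.30 and -0.03 (SE 0.09) over the mean of the days. Srd5a1 was between 22.7 and 65.1 CPM in WT and between 23.0 and 62.6 CPM in KO, and its difference over the mean of the days was 0.11 (SE 0.18). In GENCODE, Srd5a1 shares 14.4% of its 75-base words with the overlapping transcript Gm17108 and Hsd3b6 7.61% with Hsd3b2 and Hsd3b3. Reads that match Hsd3b6 and another of these genes equally cannot be assigned. For Srd5a1 this depends on the annotation used for counting, which was not checked.

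The 2 HSD3B isozymes had estimates of opposite sign in KO against WT at day 22, at day 24 and over the mean of the days, and neither gene was called. At day 22 Hsd3b1 was at 190.1, 212, 220.4 and 219 CPM in WT and at 157, 135, 165 and 81.6 CPM in KO, so that all KO libraries were below all WT libraries (log2 fold change -0.64, SE 0.20, edgeR adjusted p = 0.089). Hsd3b6 was at 176, 120.2, 91.0 and 88.1 CPM in WT and at 164, 192, 253 and 91.0 CPM in KO (0.56, SE 0.34). Over the mean of the days Hsd3b1 had -0.35 (SE 0.12, edgeR adjusted p = 0.0825) and Hsd3b6 0.38 (SE 0.21, edgeR adjusted p = 0.292).

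The log2 ratio of Hsd3b6 to Hsd3b1 per kilobase within a library does not depend on how libraries are scaled. In WT at day 22 it was -0.07, -0.78, -1.23 and -1.27, and in KO 0.10, 0.55, 0.67 and 0.20, so that the genotypes did not overlap. At day 24 it was -1.23 and -0.34 in WT and -0.08 and 0.43 in KO, and at day 26 -0.27 and -0.22 in WT and 0.31 and 0.09 in KO, again without overlap. At day 20 the ranges overlapped, with -1.31 to -0.09 in WT and -1.38 to 0.23 in KO. The KO minus WT difference was 0.16, 1.22, 0.96 and 0.45 at the 4 days and 0.70 over their mean. The exact two-sided permutation test within days gave p = 0.00252 for the mean over 176400 relabellings, and 0.714, 0.0286, 0.333 and 0.333 for single days in the exact test, where 0.0286 is the smallest value that 4 against 4 and 0.333 the smallest that 2 against 2 libraries allow. Leaving out any 1 library gave a mean of 0.59 to 0.81 with exact p between 0.000238 and 0.009, and leaving out the 9 libraries with epididymal transcripts gave 0.65 with exact p = 0.0625. A ratio of 0 on this scale stands for equal levels per kilobase. KO group means were 0.38, 0.18 and 0.20 from day 22 on while all WT group means were below 0. This ratio is 1 of many that the members allow and was chosen with earlier results of these data known, so that its p-values describe these libraries and are no independent evidence of a difference.

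**Figure D4:**
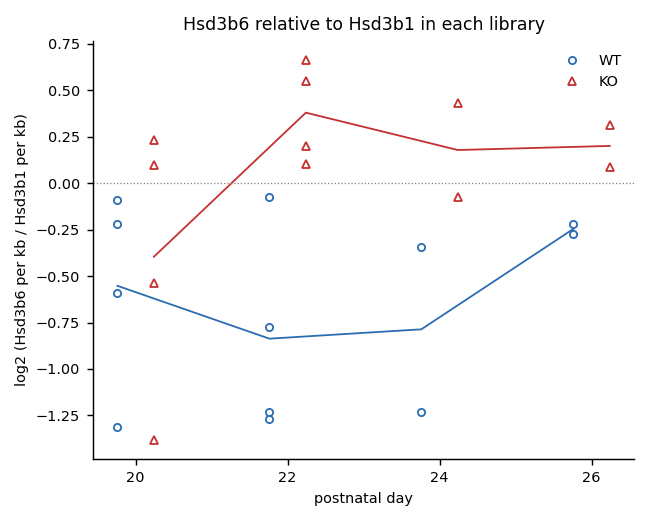
Log2 ratio of Hsd3b6 to Hsd3b1 per kilobase in each library (points) by postnatal day, with WT as circles, KO as triangles and lines through the group means. From day 22 on every KO point lies above every WT point of the same day, while at day 20 the ranges overlap.

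In some libraries all or none of the members lay above the mean of their group. KO day 20 replicates 3 and 4 and KO day 22 replicate 3 were above their group's mean for 10 of 10 members, and KO day 22 replicate 4 for 0 of 10, while the other libraries of the groups of 4 were above it for 1 to 8 of 10. The Pearson correlation of a pair of members' deviations from group means over the 24 libraries went from -0.0852 for Star and Hsd17b3 to 0.922 for Hsd3b6 and Srd5a1, and Star had 0.022 with Hsd3b1 and 0.0205 with Srd5a1. The members' summed level was 589, 422, 885 and 1002 CPM in KO at day 20, 447, 537, 553 and 532 CPM in WT at day 20, and 781 to 968 CPM in WT at day 22. At day 20, KO replicates 1, 3 and 4 thus lay above all WT libraries of that day and KO replicate 2 below them.

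Summed levels of germ cell markers were set beside these values. The round spermatid list summed to 25.0, 10.4, 52.0 and 84.9 CPM in KO at day 20, in the same order of replicates, against 3.69 to 11.6 CPM in WT at day 20 and 55.6 to 82.4 CPM in WT at day 22. In KO at day 22 the members summed to 981, 1038, 1314 and 558 CPM and the round spermatid list to 80.4, 280, 146 and 102 CPM, so that neither the highest nor the lowest library was the same. In WT at days 24 and 26 the replicate with the higher sum of members (930 against 672 CPM and 2217 against 1357 CPM) had the lower sum of round spermatid genes (230 against 325 CPM and 464 against 507 CPM), but the higher sum of elongating spermatid genes (193 against 186 CPM and 2155 against 1151 CPM). In KO at day 24 the replicate with the higher sum of members (1396 against 1170 CPM) had the lower elongating spermatid sum (444.5 against 1122 CPM). In KO at day 26 the higher sum of members (1276 against 1147 CPM) went with the higher elongating spermatid sum (2248 against 2140 CPM). In KO at day 22 the elongating spermatid list summed to 24.6, 279, 114 and 29.6 CPM, in another order than the members. In KO at day 20 the elongating spermatid list summed to 10.2, 1.90, 15.3 and 39.7 CPM, in the order of the members, and the pachytene list to 3748, 3277, 2973 and 3125 CPM, in another order. All 6 genes of the round spermatid list were called higher in KO at day 20 (2.98% of all genes) and 4 of 6 over the mean of the days (3.52% of all genes, edgeR). With the round spermatid minus pachytene score of each library as a covariate, which was chosen after seeing the data, no member was called at any day, 8 of the 10 estimates at day 20 changed sign, and Insl3 over the mean of the days was 0.49 (SE 0.25, edgeR adjusted p = 0.386). Under that covariate 205 genes were called over the mean of the days in place of 1215.

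Markers of other somatic cells moved too. Over the mean of the days 3 of 6 endothelial genes (Cdh5, Emcn and Pecam1) and 2 of 6 peritubular genes (Acta2 and Myh11) were called lower in KO (3.56% of all genes were). Their sums in KO day 22 replicate 4, the library that was low for all 10 members, were 26.4 and 260.3 CPM, the lowest of all libraries, and the macrophage list was lowest there as well (129 CPM against 169 to 308 CPM). The Sertoli list summed to 2220 CPM there, the highest of the KO libraries (1424 to 1933 CPM in the others) and above WT at day 22 (1491 to 1835 CPM). No Sertoli or macrophage gene was called between genotypes in edgeR, with 3 of 10 and 0 of 6 at an unadjusted p under 0.05 over the mean of the days, while DESeq2 called 1 Sertoli gene higher. Their part in the members' values was not tested.

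**Figure D5:**
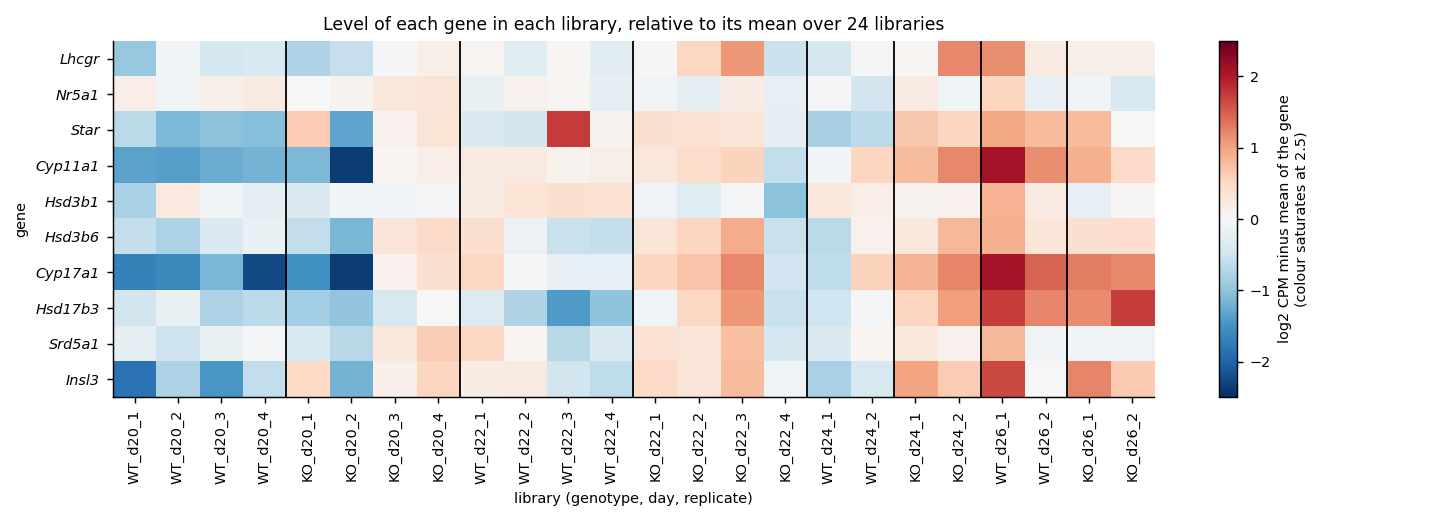
Log2 CPM of each gene (rows) in each library (columns), relative to the mean of the gene over the 24 libraries, with red above and blue below the mean and lines between groups. KO day 20 replicates 3 and 4 are above the mean of their group in all 10 rows, and WT day 26 replicate 1 is above replicate 2 in all 10 rows.

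The other genes of the pathway were read from lists of their own. Of 26 partners in cholesterol supply, electron transfer and steroid conversion, 24 were tested and none was called in KO against WT at any day or over their mean (edgeR), with 1, 3, 0, 4 and 4 at an unadjusted p under 0.05, while DESeq2 called 1 lower at day 22, 1 at day 26 and 1 over the mean (1.91%, 0.444% and 4.4% of all genes). The 5 with the highest level, Soat1 (cholesterol esterification), Cyb5b, Scarb1 (lipoprotein receptor), Fdx1 (electron donor to CYP11A1) and Cyb5a (partner of CYP17A1), had log2 fold changes over the mean of the days between -0.16 and 0.01. With age, 5 were called higher and 2 lower in WT, and 2 higher and 7 lower in KO, of 24 tested, where 24.4% and 18.1% of all genes were called higher and lower in WT and 27.2% and 24.9% in KO. Lipe, the hormone-sensitive lipase that frees stored cholesterol, was called higher in both, by 2.06 (SE 0.27, edgeR adjusted p = 3.37e-06) and 2.16 (SE 0.27, edgeR adjusted p = 3.94e-06), and was chosen after its values were seen. At day 26 Lipe was at 67.9 and 52.2 CPM in WT and at 75.0 and 72.1 CPM in KO. The members summed to 2217 and 1357 CPM and to 1276 and 1147 CPM there, and the elongating spermatid list to 2155 and 1151 CPM and to 2248 and 2140 CPM. Which cells of the testis its RNA came from was not tested.

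Of 27 genes of luteinizing hormone signalling and Leydig cell regulation, none was called at a single day in edgeR (2, 6, 1 and 10 at an unadjusted p under 0.05, with 1 higher and 1 lower at day 20 in DESeq2) and 3 were lower in KO over the mean of the days (3.56% of all genes were). Among them, Nr2f2, a nuclear receptor of interstitial progenitors, had -0.38 (SE 0.10, adjusted p = 0.0316 in edgeR), and Prkar2b, a regulatory subunit of protein kinase A, had -0.55 (SE 0.12, adjusted p = 0.0143 in edgeR). Both are also made by other somatic cells. The 5 with the highest level otherwise, Prkar1a, Gnas, Igf1, Pde8a and Pdgfra, had values between -0.42 for Igf1 (edgeR adjusted p = 0.162) and 0.11 for Pde8a.

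Outside the members, the genes whose level over the 24 libraries was most like the members' mean included Gpt2 (Pearson r 0.945), Aldh1l1 (0.941), Me1 (0.929), Bhmt (0.917), Ephx1 (0.912), Zbtb8b (0.898) and Aldh1a7 (0.896). Gpt2 is a mitochondrial aminotransferase, Me1 makes NADPH from malate, Aldh1l1 and Bhmt act in folate and methyl group metabolism, and Ephx1 is an epoxide hydrolase. Among the members r to the mean went from 0.956 for Cyp17a1 and 0.945 for Cyp11a1 down to 0.44 for Hsd3b1 and 0.0928 for Nr5a1, although each member is part of that mean. The points share age, germ cell content and sequencing depth, and these values are descriptions.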

How the data were processed

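Whole testis RNA was sequenced as ribosome-depleted, strand-specific paired-end libraries. The extraction label also names a purification of spermatogenic cell fractions, whereas the tissue is given as testis. The authors aligned reads to mm10 with STAR 2.7.11b and counted them per gene with HTSeq (reverse strand, strict intersection, no multiple alignments), and the deposited values are raw counts. Lines for unassigned reads stayed out of library sizes, with 45.1 to 58.5% of each library's tally given as no feature. The study's text gives fewer day 20 samples than the labels, and all labelled samples were used. It calls the samples biological replicates without further detail.

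Counts were tested in edgeR 4.0.16 (R 4.3.3, filterByExpr with a minimum count of 10, TMM, robust quasi-likelihood fit of 8 groups, two-sided, Benjamini-Hochberg over 17170 genes, called under 0.05), with DESeq2 1.42.0 as an alternative. On simulated counts of the KO against WT mean of days, with 17042 genes, 66% of 1.5-fold, 84% of 2-fold, 100% of 3-fold and 90% of 0.5-fold changes were recovered. The changed genes were picked at random and each gene was drawn on its own, without shifts that genes share within a library. These shares need not hold for the members or for single days. RPKM used GENCODE exon lengths on GRCm38. Members, lists and tests were chosen with earlier results of these data known. Named were the members, called pathway genes and the 5 highest others of each pathway list, and the 8 genes most like the members' mean, of which some results are not reported here. Alternatives were size factors, filter, replicate block, scaling to Sertoli genes, single-day fits, prior count, and each library left out. Replicates of a group differed by more than sampling noise.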

Additional observations from a re-analysis of the deposited data

Results flagged for a closer look

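Star in WT day 22 replicate 3 was at 230 CPM, far above the other 3 libraries of the group (49.6 to 72.5 CPM). The other members in that library were not high together, since 3 of those 9 were above their group's mean. The library holds 17082124 counts, and its epididymal transcripts summed to 14.3 CPM.

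Hsd3b1 in KO day 20 replicate 1 was at 130 CPM, below the other 3 libraries of the group, which lay between 159.9 and 163 CPM. These are 2 of the groups of 4 examined over 10 genes, and chance alone sets apart about 1 in 20 such groups by this criterion.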

How the results depend on the processing

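Among the members Hsd17b3 had the lowest counts (from 38), and the cause of each change below was not tested. The stage score and the joint omissions of libraries were chosen after seeing the data. Against WT, the number of members called higher was 0 at day 22 with the replicate block, the Sertoli scaling, each day fitted alone, the stage score and without the libraries with epididymal transcripts, fits that called 53, 146, 9, 5 and 0 of all genes higher there in place of 217. Over the mean of the days it was 0 without the filter, under the replicate block, the Sertoli scaling and the stage score and without those libraries (461, 332, 403, 41 and 0 of all genes, in place of 604). It was 2 in DESeq2 and without both WT day 20 replicate 2 and KO day 22 replicate 4 (1073 and 998 of all genes). At day 20 DESeq2 called 1 (765 of all genes), and at day 24 the single-day fit called 1 (2 of all genes). With age, 6 were higher in KO under the Sertoli scaling, 1 without the epididymal libraries and 0 in both genotypes with the stage score, a fit that called 0 of all genes higher with age in WT and 668 in KO. Leaving out 1 library at a time, the counts called higher ranged over 0 to 3 at day 20, 0 to 1 at day 22, 0 to 2 over the mean of the days, 4 to 8 with age in WT and 1 to 3 in KO, and those called lower over 0 to 1 over the mean of the days, with age in KO and for the difference in age change. The counts of all genes called higher ranged over 102 to 716, 6 to 495, 112 to 934, 3347 to 4266 and 3561 to 5117 in the same order, and those called lower over 190 to 821, 2268 to 5030 and 0 to 320. At day 20, the 3 called without KO replicate 2 were Cyp11a1 (1.08), Cyp17a1 (1.5) and Insl3 (1.5). Hsd3b6 to Hsd3b1 had 0.65 without the epididymal libraries (exact p = 0.0625).

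Replicate numbers were not taken as pairs, since the labels give them no meaning and the correlation of same-numbered samples was not over 0.1 in every pair. Correlations of same-numbered deviations were 0.0705 to 0.41 at day 20, -0.459 to -0.0254 at day 22, 0.39 at day 24 and 0.416 at day 26. The replicate block gave Hsd17b3 1.18 at day 22 (edgeR adjusted p = 0.0918) and Insl3 0.77 over the mean of the days (adjusted p = 0.0812), and called 898 genes there in place of 1215. Epididymal transcripts fell on replicate 3 of both genotypes at day 20 and on replicate 2 of both at days 24 and 26.

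With the stage score, signs changed to -0.93 (Cyp11a1), -0.80 (Cyp17a1), -0.0176 (Hsd3b1), -0.92 (Hsd3b6), -0.84 (Hsd17b3), -0.55 (Lhcgr), -0.14 (Nr5a1) and -0.67 (Srd5a1) at day 20, -0.59 (Cyp11a1), -0.16 (Cyp17a1) and -0.0279 (Srd5a1) at day 22, 0.0501 (Hsd17b3) at day 26, -0.43 (Cyp11a1), -0.13 (Cyp17a1), -0.0683 (Hsd3b6), -0.00766 (Lhcgr) and -0.21 (Srd5a1) over the mean of the days, -0.64 (Cyp11a1), -0.59 (Cyp17a1), -1.85 (Hsd3b6), -0.53 (Lhcgr), -0.40 (Nr5a1) and -1.49 (Srd5a1) with age in WT and -0.50 (Star), -0.58 (Cyp11a1), -0.20 (Cyp17a1), -0.0424 (Hsd3b1), -1.05 (Hsd3b6), -0.25 (Insl3) and -0.55 (Lhcgr) with age in KO. With the DESeq2 size factors, signs changed to -0.000606 (Hsd17b3) at day 20, 0.00112 (Nr5a1) at day 22 and 0.0417 (Hsd17b3) at day 26. In DESeq2, signs changed to -0.00532 (Hsd17b3) at day 20, 0.0013 (Nr5a1) at day 22 and 0.0418 (Hsd17b3) at day 26. With each day fitted alone, signs changed to -0.00272 (Hsd17b3) at day 20 and 0.000155 (Hsd17b3) at day 26. Without the libraries with epididymal transcripts, signs changed to -0.13 (Hsd17b3) at day 20, 0.61 (Star) at day 22, -0.0125 (Srd5a1) over the mean of the days and -0.0253 (Hsd3b1) and 0.00768 (Srd5a1) with age in KO. Under Sertoli scaling, signs changed to -0.0198 (Cyp11a1) at day 22, 0.12 (Hsd17b3) and 0.0643 (Insl3) at day 26 and 0.18 (Nr5a1) and 0.48 (Srd5a1) with age in KO. Without the filter, signs changed to 0.0296 (Nr5a1) at day 22 and 0.00341 (Hsd17b3) at day 26. Without both unusual libraries, signs changed to 0.0604 (Nr5a1) at day 22 and 0.00235 (Hsd17b3) at day 26. Fits that leave out 1 library in turn gave, at day 20, -0.12 to 0.19 (Hsd3b1), -0.22 to 0.14 (Hsd17b3) and -0.0159 to 0.12 (Nr5a1). They gave, at day 22, -0.55 to 0.47 (Star), -0.0446 to 0.28 (Cyp11a1) and -0.11 to 0.0482 (Nr5a1). They gave, at day 26, -0.48 to 0.11 (Hsd3b6), -0.30 to 0.28 (Hsd17b3), -0.68 to 0.98 (Insl3) and -0.90 to 0.00411 (Srd5a1). They gave, over the mean of the days, -0.11 to 0.0841 (Nr5a1). They gave, with age in WT, -0.32 to 0.41 (Nr5a1). They gave, with age in KO, -0.12 to 0.66 (Star), -0.10 to 0.15 (Hsd3b1) and -0.31 to 0.12 (Srd5a1).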

Other observations

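KO day 20 replicate 1 differed from the other KO libraries of that age in the balance of the members. Its Star (106 CPM) and Insl3 (51.4 CPM) were among the highest of the group, while its Cyp11a1 (55.1 CPM) and Cyp17a1 (56.4 CPM) were near the WT values. Nr4a1, an immediate early gene that luteinizing hormone raises in Leydig cells, was at 96.7 CPM there, the highest of the 24 libraries. It was at 6.34, 15.3 and 34.5 CPM in the other KO libraries and at 4.53 to 9.88 CPM in WT at day 20, and reached 49.9 CPM at later ages. The cause of its level was not tested. This library and gene were chosen after their values were seen.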
